A study of Mus musculus with 6 samples.

Results

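The 50 genes described here encode the Wnt ligands, their receptors and the proteins that modulate the signal, in RNA from imiquimod-treated mouse ear skin. They were all rows of the table of 23518 gene symbols named Wnt, Fzd, Sfrp, Dkk or Rspo with a number, together with Axin1, Axin2, Lrp5, Lrp6, Tcf7, Tcf7l1, Tcf7l2, Wif1 and Frzb, whatever their values. They comprised 19 Wnt ligands, 10 Frizzled receptors, 2 LRP co-receptors, 10 secreted antagonists, 4 R-spondins, 2 Axins and 3 TCF factors. The samples were 3 from HdR mice, the label of the mice described as HOIL1 ΔRING1, and 3 from wild-type (WT) mice. Every mouse received 10 mg of a cream with 5% imiquimod, a Toll-like receptor 7 agonist, on the ears, and the ear skin was taken at day 1. There was no skin without imiquimod, so the comparison addresses the genotype under imiquimod and not the effect of imiquimod. The sources give no strain, age or sex and do not say how the allele was made, and nothing says whether the samples of a genotype came from separate animals, so p-values measure the spread between these samples, which may be technical.

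Wnt proteins are secreted lipid-modified ligands. They bind a Frizzled receptor together with LRP5 or LRP6, which stops the destruction complex of Axin, APC and GSK3 from marking beta-catenin for degradation, and beta-catenin then acts with TCF and LEF factors on target genes. Frizzled receptors also carry signals without beta-catenin, such as planar cell polarity. Secreted frizzled-related proteins, Wif1 and Dickkopf proteins restrain the signal outside the cell, and R-spondins raise it by protecting Frizzled from removal. In skin the pathway is best known for starting hair follicles and driving the growth phase of the hair cycle. HOIL1, the product of Rbck1, is a subunit of LUBAC, the complex that makes linear ubiquitin chains.

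The deposited values were aligned bases summed per gene, and 4433 to 5264 Mb were summed per HdR library and 5038 to 5966 Mb per WT library. Levels are coverage scaled to 1 Mb of aligned bases, and a level of 1 base per Mb corresponds to 11.7 to 23.6 read pairs. Changes are differences of log2(value + 1), HdR minus WT, a scale that makes the changes of weakly covered genes smaller, and were tested with limma over 15049 genes with Benjamini-Hochberg adjustment and a threshold of 0.05. Rbck1 had 23.9, 12.997 and 19.7 bases per Mb in HdR replicates 1 to 3, against 66.6, 55.1 and 64.1 in WT replicates 1 to 3 (log2 change -1.70, limma adjusted p = 0.00438), although sums per gene do not show which part of the gene was read. The genotypes also differed in how coverage depended on transcript length: the slopes of log2 level on log2 length, relative to the mean of all libraries, were -0.125, -0.272 and -0.0805 in HdR replicates 1 to 3 and 0.1903, 0.0404 and 0.247 in WT replicates 1 to 3. Relative to short transcripts, long ones were thus covered less in every HdR library than in any WT library, and this cannot be told apart from genotype. Counts of genes and most changes are therefore also given after a length correction, which removed this trend from each library. No gene of the marker lists for skin and other cells of the ear was at 0 in all libraries.

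Of the 50 genes, 42 passed the filter (1 base per Mb or more in 3 or more libraries), and 18 of these 42 were lower in HdR skin and 0 were higher at a limma adjusted p under 0.05. Over all genes tested, 17.9% were called lower and 12.7% higher. The 18 were the ligands Wnt7b, Wnt16, Wnt5a, Wnt2b and Wnt3a, the receptors Fzd1, Fzd2, Fzd3, Fzd4, Fzd5 and Fzd7, both co-receptors Lrp5 and Lrp6, the antagonists Sfrp1, Dkk3 and Wif1, Rspo4, and Axin2. Changes over the 42 genes ran from -1.29 for Lrp5 to 0.47 for Tcf7l2, with a median of -0.56, against -0.13 over all genes tested, and 38 of the 42 were negative. All HdR values lay below all WT values in 23 of the 42 genes, against 30.7% of all genes tested, and above them in 2, Rspo1 and Tcf7l2, against 20.9% of all. After length correction, 7 of the 42 genes were lower and 0 higher, against 11.5% and 7.92% of all genes. Those 7 were Fzd2, Sfrp1, Wnt7b, Fzd1, Rspo4, Dkk3 and Wif1, and the median was then -0.46. When the library means were removed as well, a step chosen after seeing the data, Fzd2, Sfrp1, Wnt7b, Rspo4 and Wif1 were lower, 0 were higher and the median was -0.36, with 8.48% of all genes lower and 10.9% higher. With the replicate number as a block 22 of the 42 were lower, against 27.2% of all genes, and with scaling to the total 25 were, against 28.6% of all. Rspo4 is counted as lower in each of these settings and among the 23 genes without overlap. It passed the filter through the WT libraries alone, so its place in these counts is no support for them. A lower level of such genes in whole skin can mean fewer cells of a type or less RNA per cell. For long transcripts it can also reflect the length trend of coverage described above. These cannot be told apart here.

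**Figure D1:**
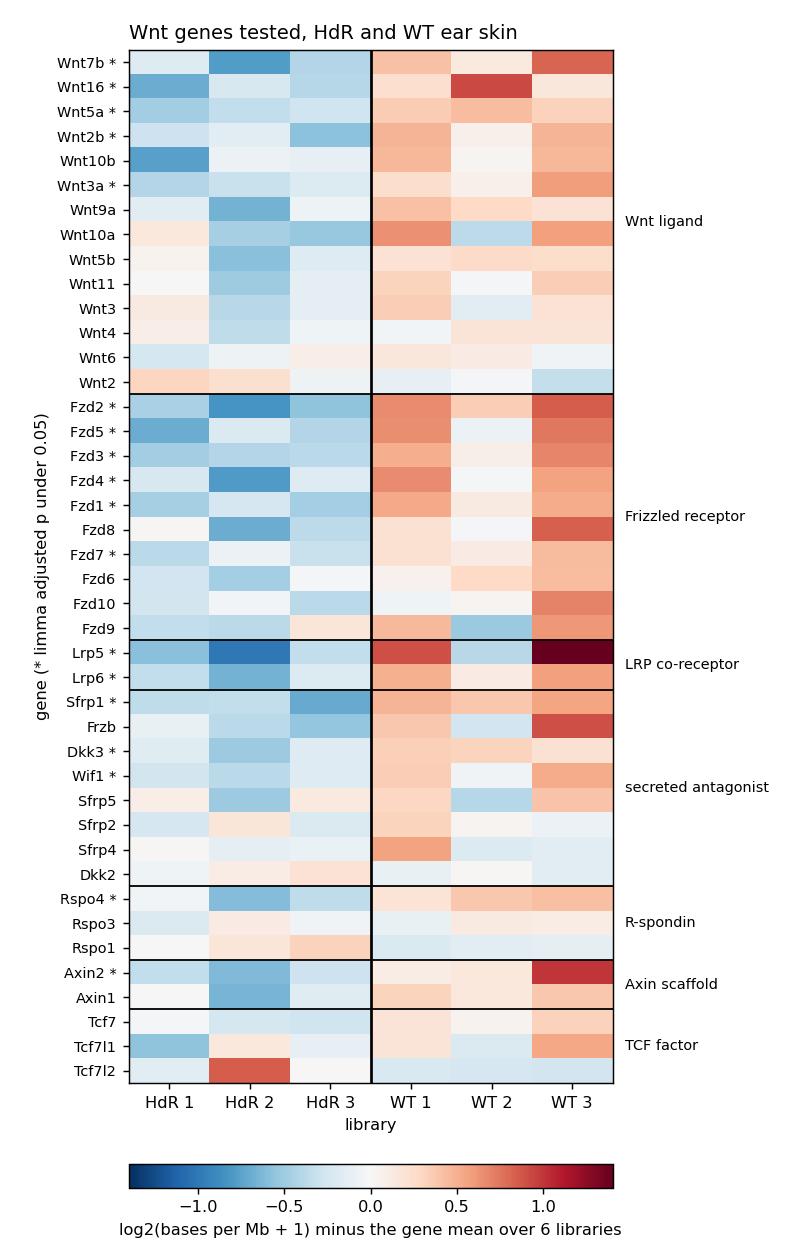
Log2(bases per Mb + 1) of the 42 Wnt genes tested, each minus its mean over the 6 libraries, in 3 HdR libraries on the left and 3 WT libraries on the right, grouped by role (red higher, blue lower, star for a limma adjusted p under 0.05). The 18 starred genes are blue in every HdR library, although palest for Rspo4 in HdR replicate 1, while Tcf7l2 is red in HdR replicate 2 and Lrp5 and Axin2 are darkest red in WT replicate 3.

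Promoters are shown for Axin2, the feedback gene read as a marker of Wnt signalling, and for Fzd7, the single gene among those lower whose window held a core TCF/LEF motif. RefSeq promoters of GRCm38.p6, from 250 bases before to 50 bases after the start, were at hand for 10 of the 18 lower genes and 33 of the 50 genes. The Axin2 window lies at chr11:108920099-108920398 on the plus strand and the Fzd7 window at chr1:59481897-59482196 on the plus strand. Capitals mark the motifs GGGCGG and CTTTGTT on either strand, so that CCGCCC and AACAAAG are their reverse complements.
Axin2: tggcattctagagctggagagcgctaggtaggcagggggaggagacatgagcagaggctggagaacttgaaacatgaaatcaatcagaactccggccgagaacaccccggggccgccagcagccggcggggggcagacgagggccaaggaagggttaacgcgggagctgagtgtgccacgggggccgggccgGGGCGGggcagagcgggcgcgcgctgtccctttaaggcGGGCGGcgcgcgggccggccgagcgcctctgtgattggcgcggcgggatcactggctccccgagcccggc
Fzd7: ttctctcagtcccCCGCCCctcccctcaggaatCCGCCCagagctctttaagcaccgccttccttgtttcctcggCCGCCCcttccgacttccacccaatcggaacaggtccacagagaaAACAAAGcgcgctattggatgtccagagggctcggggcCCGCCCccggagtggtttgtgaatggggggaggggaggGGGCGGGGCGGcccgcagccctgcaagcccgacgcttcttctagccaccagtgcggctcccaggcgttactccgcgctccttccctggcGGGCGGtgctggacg
The TCF/LEF core CTTTGTT was found in the promoter of 1 of the 10 lower genes, Fzd7. There it lies 130 bases before the start on the minus strand. This core was found in 4 of the 33 Wnt genes with a promoter (Dkk1, Fzd7, Tcf7l2 and Wnt3) and in 5.85% of all 32851 promoters. The variant CTTTGAT was found in 0 of the 10, in 2 of the 33 (Wnt11 and Wnt5b) and in 3.73% of all. The Sp1-type GC box GGGCGG was found in 8 of the 10, with 2 copies in Axin2 and 7 in Fzd7 (a pair of which overlap by a base), in 26 of the 33 Wnt genes with a promoter, whether lower or not, and in 35.7% of all. The Wnt genes were counted by gene, with 38 promoters for the 33 genes, while the shares of all are of single promoters, so the 2 differ in unit. These are letter matches in a window of 300 bases on both strands, and say nothing of binding.

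Among the 19 ligands, 14 were tested, 5 were lower and 9 did not pass, against 17.9% lower over all genes tested. After length correction 1 of the 14 was lower, Wnt7b, against 11.5% of all genes. Wnt7b, a ligand of skin and follicle keratinocytes (ENSMUSG00000022382.15; chromosome 15, 85535437 to 85582473 of GRCm38), had 14.4, 9.16 and 12.1 bases per Mb in HdR replicates 1 to 3, against 22.3, 18.2 and 29.8 in WT replicates 1 to 3. The groups did not overlap, and the log2 change was -0.91 (SE 0.23, limma adjusted p = 0.0228) and -0.82 after length correction (adjusted p = 0.0312). Wnt5a, the best known ligand of signalling without beta-catenin (chromosome 14, 28504750 to 28527448), stood at 10.8, 12.03 and 12.6 in HdR, against 20.2, 21.3 and 19.6 in WT. Both groups were tight and lay far apart, and its log2 change of -0.74 (SE 0.16, limma adjusted p = 0.0148) was -0.34 after length correction and no longer passed (adjusted p = 0.159). Its longest transcript has 7010 nt.

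Wnt16, known for its role in bone cortex, had 1.74, 2.79 and 2.37 bases per Mb in HdR and 4.23, 7.43 and 3.95 in WT, where replicate 2 was the highest (log2 change -0.88, limma adjusted p = 0.0312; -0.81 with an adjusted p of 0.0577 after length correction). The beta-catenin ligands Wnt2b and Wnt3a stood close to the filter. Wnt2b read 1.25, 1.45 and 0.8399 in HdR and 2.82, 1.87 and 2.82 in WT (log2 change -0.68, limma adjusted p = 0.0357). Wnt3a read 1.08, 1.23 and 1.43 in HdR and 2.28, 1.91 and 3.16 in WT (log2 change -0.61, limma adjusted p = 0.0456). In both genes each HdR value was below each WT value, and neither passed after length correction (-0.61 and -0.65, adjusted p = 0.0726 and 0.0564).

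The remaining ligands tested did not pass. Wnt10b, which promotes hair growth, had 0.8796, 2.002 and 1.94 bases per Mb in HdR and 3.39, 2.28 and 3.404 in WT (log2 change -0.65, limma adjusted p = 0.067). Its paralogue Wnt10a, mutated in human ectodermal dysplasia, had 8.22, 5.03 and 4.74 in HdR and 11.9, 5.42 and 11.4 in WT, with WT replicate 2 among the HdR values (log2 change -0.56, 95% interval -1.26 to 0.13). Wnt9a had a change of -0.59 without overlap of the groups (limma adjusted p = 0.0595) and passed with the replicate number as a block (adjusted p = 0.0403). Wnt5b (-0.48), Wnt11 (-0.42), Wnt3 (-0.26) and Wnt6 (-0.15) had smaller negative log2 changes. Wnt4, a ligand of the epidermis, was the most covered ligand per length and did not pass: it had 49.98, 36.3 and 45.03 bases per Mb in HdR, against 45.8, 53.3 and 53.1 in WT (log2 change -0.22, 95% interval -0.60 to 0.17). Wnt2 was the single tested ligand with a positive change, with 2.26, 2.09 and 1.52 in HdR and 1.45, 1.596 and 1.101 in WT (0.31, 95% interval -0.12 to 0.74).

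**Figure D2:**
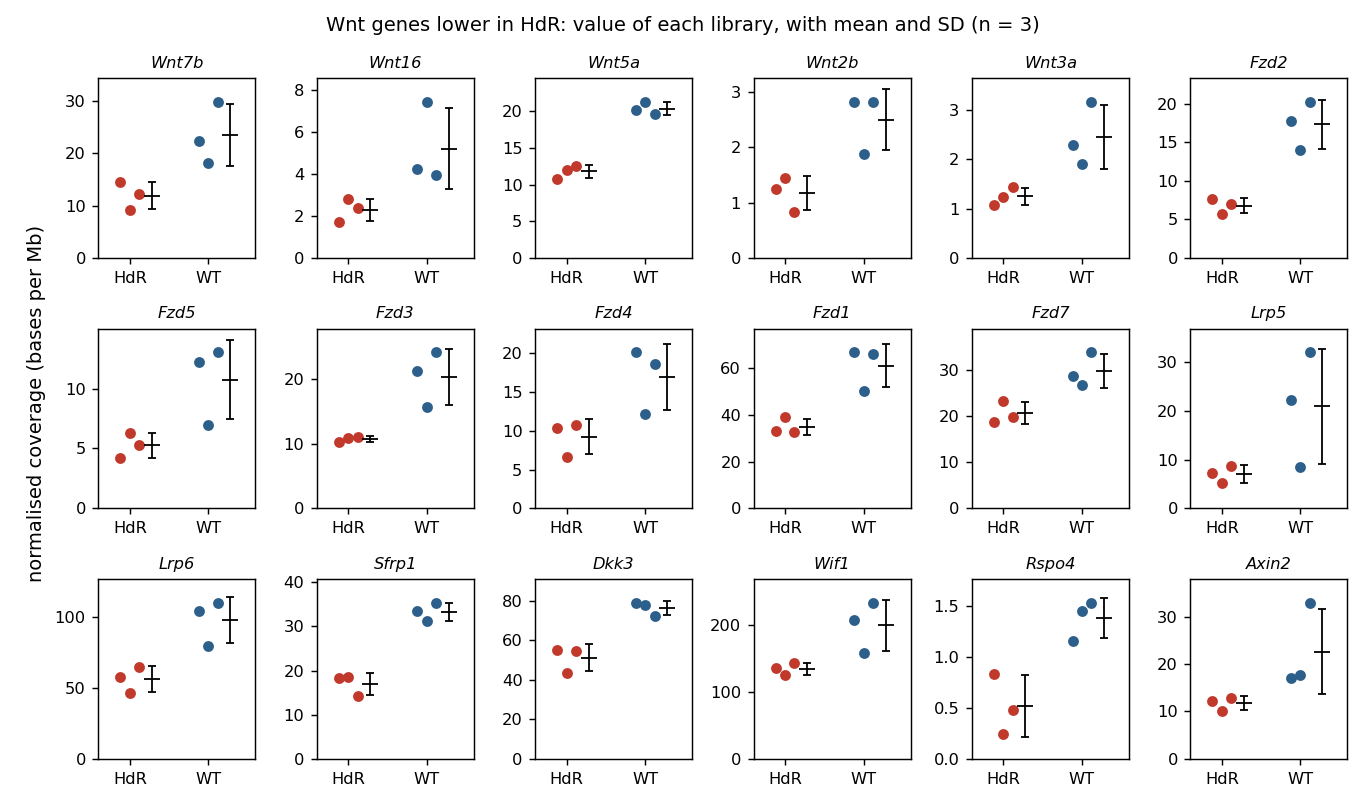
Normalised coverage in bases per Mb of the 18 Wnt genes lower in HdR, with 1 point for each library (HdR left, WT right) and the mean ± SD of 3 libraries. The groups overlap in Lrp5 alone, whose WT replicate 2 lies at 8.51 and HdR replicate 3 at 8.795, and the WT spread of Axin2 comes from WT replicate 3 at 32.9.

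All 10 Frizzled receptors were tested and all had negative changes, of which 6 passed, against 17.9% lower over all genes tested. After length correction 2 of the 10 passed, Fzd2 and Fzd1, against 11.5% of all genes. Fzd2 (ENSMUSG00000050288.6; chromosome 11, 102604396 to 102608058), a receptor for Wnt5a among other ligands, had 7.63, 5.699 and 7.03 bases per Mb in HdR replicates 1 to 3, against 17.7, 14.02 and 20.3 in WT replicates 1 to 3. The highest HdR value lay well below the lowest WT value. The log2 change was -1.23 (SE 0.20, limma adjusted p = 0.00807) and -1.09 after length correction (adjusted p = 0.0096). Fzd2 was the single gene of the 42 that passed with each library left out in turn, with changes from -1.35 to -1.10. Fzd1 (chromosome 5, 4753839 to 4758035), the most covered receptor per length, had 33.1, 38.8 and 32.6 in HdR and 66.5, 50.2 and 65.9 in WT, without overlap. Its change was -0.78 (SE 0.17, limma adjusted p = 0.0156) and -0.57 after length correction (adjusted p = 0.0399).

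The other Frizzled genes that passed did so only before length correction. Fzd3, which guides axons and planar polarity, had 10.2, 10.9 and 11.1 bases per Mb in HdR and 21.3, 15.6 and 24.1 in WT (log2 change -0.84, limma adjusted p = 0.0174). Its transcript of 12734 nt is the longest of the 50 genes, and its change was -0.35 after length correction (adjusted p = 0.112). Fzd5 had 4.21, 6.29 and 5.33 in HdR and 12.2, 6.98 and 13.02 in WT (log2 change -0.87, limma adjusted p = 0.0337). Fzd4, which also serves as the receptor of Norrin in retinal vessels, had 10.4, 6.65 and 10.7 in HdR and 20.1, 12.1 and 18.6 in WT (log2 change -0.80, limma adjusted p = 0.0389). In Fzd5 and Fzd4 the lowest WT value was that of replicate 2, close above the HdR range. Fzd7 had 18.7, 23.2 and 19.7 in HdR and 28.7, 26.7 and 33.7 in WT (log2 change -0.51, limma adjusted p = 0.048). After length correction Fzd5, Fzd4 and Fzd7 changed by -0.48, -0.42 and -0.27 (adjusted p = 0.152, 0.149 and 0.248).

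Fzd6, which orients hair follicles in mouse skin, had 33.01, 28.3 and 39.4 bases per Mb in HdR and 41.5, 48.6 and 53.98 in WT, without overlap, and missed the threshold (log2 change -0.51, limma adjusted p = 0.0587; adjusted p = 0.0208 with the replicate block). Fzd8 (-0.69, adjusted p = 0.0808, and 0.0405 with the block) behaved likewise except that its groups overlapped. Fzd10 and Fzd9 had changes of -0.45 and -0.36 with overlapping groups. Lrp6 (chromosome 6, 134446476 to 134566965), the main co-receptor of beta-catenin signalling, had 57.8, 46.3 and 64.5 in HdR, against 105, 79.5 and 110.1 in WT. Each HdR value was below each WT value (log2 change -0.79, SE 0.19, limma adjusted p = 0.0198). Lrp5 (chromosome 19, 3584828 to 3686564) had 7.28, 5.21 and 8.795 in HdR, against 22.3, 8.51 and 32.1 in WT. It had the largest log2 change of the 42 genes, -1.29, with the largest SE, 0.41, and its groups overlapped, with WT replicate 2 far below the other WT libraries (limma adjusted p = 0.0429). The longest transcripts have 9368 nt for Lrp6 and 8893 nt for Lrp5, and after length correction their changes were -0.33 for Lrp6 and -0.84 for Lrp5 (adjusted p = 0.102 and 0.102).

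Of the 10 secreted antagonists 8 were tested and 3 were lower, and all 3 also passed after length correction. Over all genes tested 17.9% were lower, and 11.5% after length correction. Sfrp1, a Wnt-binding decoy of the Frizzled-related family (ENSMUSG00000031548.7; chromosome 8, 23411502 to 23449632), had 18.4, 18.4 and 14.2 bases per Mb in HdR, against 33.4, 31.2 and 35.3 in WT. The groups were narrow and apart, with a log2 change of -0.94 (SE 0.17, limma adjusted p = 0.0105) and of -0.71 after length correction (adjusted p = 0.0249). Wif1, which binds Wnt proteins through its WIF domain (chromosome 10, 121033960 to 121100650), was the most covered of the 50 genes per length. Its coverage was 136, 125 and 143 in HdR and 208, 158 and 233 in WT, without overlap (log2 change -0.54, SE 0.18, limma adjusted p = 0.0495). After length correction the change of Wif1, a transcript of 2294 nt, was -0.72 (adjusted p = 0.0349). Dkk3, a divergent Dickkopf (chromosome 7, 112116017 to 112159057), had 55.3, 43.5 and 54.9 in HdR and 79.1, 77.8 and 72.2 in WT (log2 change -0.57, limma adjusted p = 0.0282; -0.49 and adjusted p = 0.0363 after length correction).

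Frzb, also known as Sfrp3 and first found in cartilage, had 35.4, 29.1 and 25.8 bases per Mb in HdR and 49.6, 31.3 and 72.1 in WT, and its groups overlapped (log2 change -0.67, limma adjusted p = 0.0923). Sfrp2, Sfrp4 and Sfrp5 had changes of -0.18, -0.14 and -0.19 with overlapping groups and adjusted p from 0.475 to 0.648. Dkk2, which binds LRP5 and LRP6, was the single antagonist tested with a positive change. It had 28.6, 32.1 and 34.4 in HdR and 27.6, 30.1 and 26.7 in WT (log2 change 0.16, 95% interval -0.19 to 0.51), and total scaling turned the sign (-0.15).

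Of the 4 R-spondins, ligands of LGR4, LGR5 and LGR6, 3 were tested and 1 was lower, against 17.9% of all genes tested. Rspo4, needed for nail formation in humans, had 0.837, 0.243 and 0.477 bases per Mb in HdR, against 1.16, 1.45 and 1.53 in WT. It passed the filter through the WT libraries alone, so it had to differ, and the lowest value, in HdR replicate 2, stands for 2.8 read pairs (log2 change -0.66, limma adjusted p = 0.0364; -0.81 and adjusted p = 0.0326 after length correction). Rspo3 had 4.85, 6.26 and 5.51 in HdR and 5.26, 6.32 and 6.22 in WT, with overlap (-0.09, 95% interval -0.50 to 0.33). Rspo1 had 7.87, 9.07 and 10.1 in HdR and 6.76, 7.03 and 7.19 in WT. Its HdR values were all above its WT values, the change of 0.32 did not pass (limma adjusted p = 0.178), and it was 0.01 after length correction. With quantile normalisation the change was 0.55 and passed (limma adjusted p = 0.0494).

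Inside the cell, Axin2, a scaffold of the destruction complex and a feedback target of beta-catenin (ENSMUSG00000000142.15; chromosome 11, 108920349 to 108950783), had 12.3, 10.05 and 12.8 bases per Mb in HdR, against 17.1, 17.7 and 32.9 in WT. All HdR values were below all WT values, and WT replicate 3 was far above the other WT libraries. The log2 change was -0.84 (SE 0.26, limma adjusted p = 0.0384) and -0.62 after length correction, where it did not pass (adjusted p = 0.0829). Axin2 also did not pass with quantile normalisation, with voom or without a filter. It passed with total scaling and with the replicate block. With 1 library left out, it passed only without WT replicate 2. Axin1, its constitutive paralogue, had 28.4, 17.9 and 25.3 in HdR and 35.9, 31.8 and 37.5 in WT (log2 change -0.56, limma adjusted p = 0.0591; adjusted p = 0.0164 with the replicate block). None of the 3 TCF genes passed. Tcf7, which encodes TCF1 and is also a T cell factor, had 5.601, 4.64 and 4.53 in HdR and 6.62, 5.95 and 7.36 in WT (-0.37, limma adjusted p = 0.142). Tcf7l1, which encodes TCF3, a factor of follicle stem cells, had overlapping groups (-0.35, adjusted p = 0.32). Tcf7l2, which encodes TCF4, had 12.2, 25.4 and 13.8 in HdR and 11.6, 11.4 and 11.3 in WT. Its HdR values were all above its WT values, but HdR replicate 2 stood far above the other HdR libraries (log2 change 0.47, 95% interval -0.11 to 1.05, limma adjusted p = 0.18). Without HdR replicate 2 its change was 0.16.

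**Figure D3:**
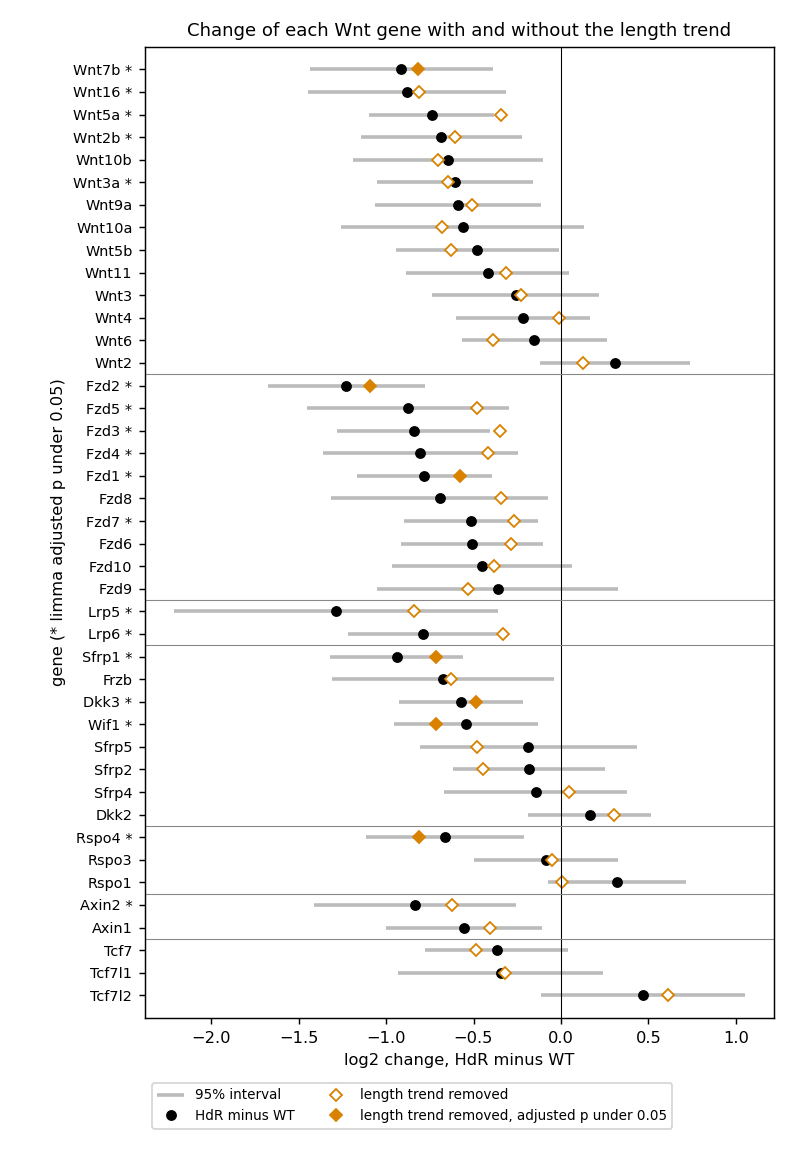
Log2 change of the 42 Wnt genes tested, HdR minus WT, with its 95% interval (black points, grey bars) and after length correction (orange diamonds, filled where the limma adjusted p is under 0.05), in the role order of ligands, Frizzled receptors, LRP co-receptors, antagonists, R-spondins, Axins and TCF factors. Fzd2, Fzd1, Wnt7b, Sfrp1, Dkk3, Wif1 and Rspo4 have filled diamonds.

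Transcript length moved with these changes. Across the 42 genes the correlation of log2 change with log2 transcript length was r = -0.522, against r = -0.482 across all genes tested with a length; the genes share libraries and are no independent replicates. The longest transcripts of the 18 lower genes had a median of 4229 nt, those of the other 24 a median of 3081 nt and those of all genes tested a median of 3270 nt. Among transcripts under 2500 nt, 2 of 11 Wnt genes were lower with a median change of -0.362, against 5.87% lower and a median of 0.285 for all genes of that length. Those 2 were Wif1 and Rspo4, and Rspo4 passed the filter through the WT libraries alone. From 2500 to 4000 nt 6 of 17 were lower with a median of -0.573, against 15.5% and -0.155. From 4000 nt upwards 10 of 14 were lower with a median of -0.786, against 31.5% and -0.436. In each class the median of the Wnt genes was below that of all genes, a description without a test.

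**Figure D4:**
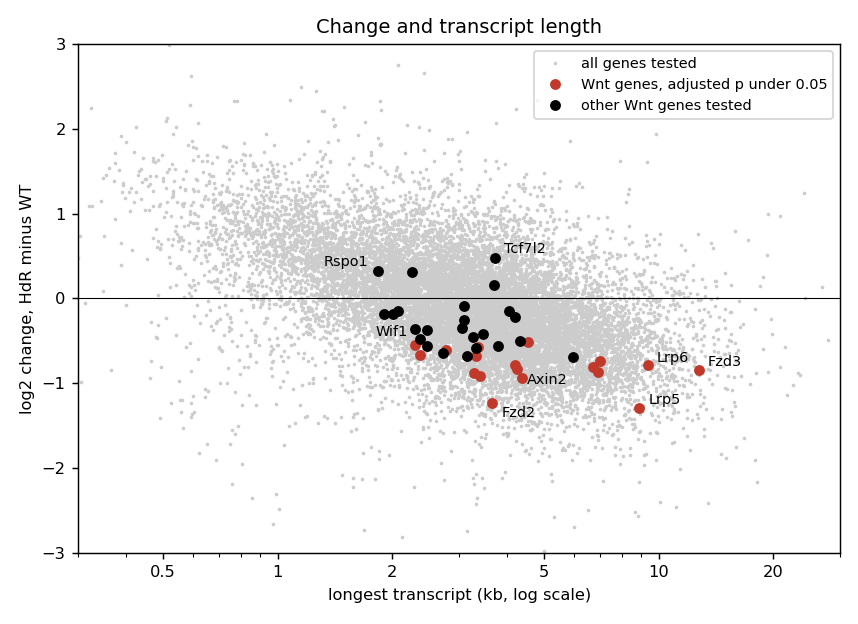
Log2 change, HdR minus WT, against the length of the longest transcript in kb (log scale) for all genes tested (grey), the 18 Wnt genes lower in HdR (red) and the other 24 Wnt genes tested (black); 102 genes beyond the axes and 148 without a length are not drawn. The grey cloud slopes down with length, and most Wnt genes lie in its lower part.

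Levels were compared between genes per length of transcript, as bases per Mb per kb. Wif1 stood highest at 58.8 ± 3.92 in HdR and 86.9 ± 16.7 in WT (mean ± SD, n = 3 each), followed by Dkk3 at 15.3 ± 1.99 in HdR and 22.7 ± 1.09 in WT. Among the ligands Wnt4 led at 10.4 ± 1.65 in HdR and 12.1 ± 1.02 in WT, and among the receptors Fzd1 at 8.301 ± 0.826 in HdR and 14.5 ± 2.202 in WT. Shares within a family do not depend on the scaling of the libraries. They were taken before length correction, so the length trend that differed between the genotypes remains in them. Wnt4 made up 35.9, 32.4 and 35.9% of the summed ligand level per kb in HdR replicates 1 to 3, against 25.96, 33.1 and 28.2% in WT replicates 1 to 3, with overlap at WT replicate 2. Wnt7b made up 12.8, 10.1 and 11.9% in HdR, against 15.6, 13.9 and 19.5% in WT, without overlap. Fzd2 made up 6.08, 4.43 and 5.07% of the summed Frizzled level in HdR, against 8.42, 8.17 and 8.26% in WT, so its part of the receptors was smaller in every HdR library. Dkk2 made up 7.17, 8.64 and 8.57% of the summed antagonist level in HdR, against 4.75, 6.43 and 4.21% in WT, and was the antagonist whose share was larger in every HdR library among the 4 most covered. Wif1 made up 55.2, 54.4 and 57.5% in HdR and 57.6, 54.4 and 59.3% in WT, with overlap. Other tested genes also had shares without overlap: Fzd3, Sfrp1 and Wnt3a with smaller ones in HdR, and Wnt2 with a larger one. Fzd2 and Wnt7b were called lower from the same values, so their smaller shares are no separate support.

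**Figure D5:**
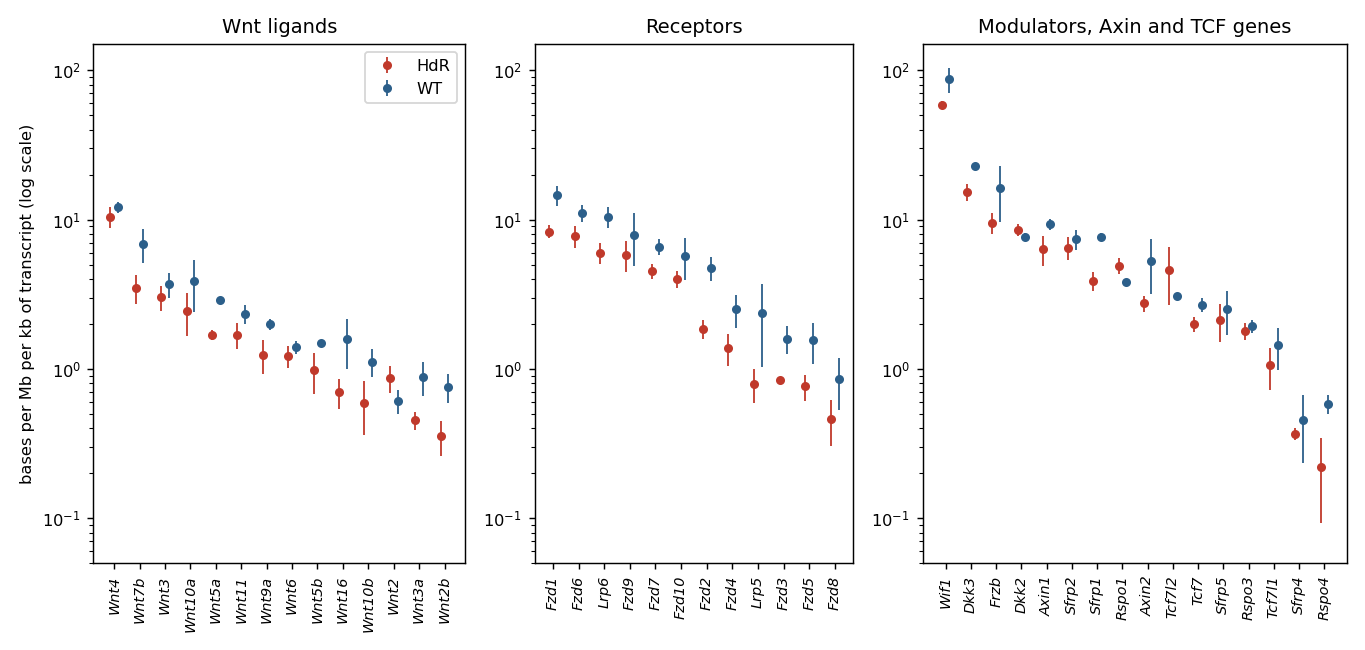
Mean normalised coverage per kb of longest transcript (log scale) of the 42 Wnt genes tested in HdR (red, left) and WT (blue, right), with bars for the SD of 3 libraries. Wif1 and Dkk3 stand highest, Wnt4 leads the ligands and Fzd1 the receptors, and Wnt2, Dkk2, Rspo1 and Tcf7l2 have the higher mean in HdR.

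The 8 genes that did not pass the filter were Wnt1, Wnt7a, Wnt8a, Wnt8b, Wnt9b, Dkk1, Dkk4 and Rspo2. Wnt1 had 0.293, 2.71 and 0.237 bases per Mb in HdR and 0, 0.0661 and 0.0847 in WT. Wnt8b had 0.479, 1.79 and 0.557 in HdR and 0.0953, 0.384 and 0.00931 in WT, and Dkk4, a Wnt-induced inhibitor of early hair placodes, had 0.01102, 1.45 and 0.277 in HdR and 0.0385, 0.406 and 0.0313 in WT. In Wnt1, Wnt8b and Dkk4 HdR replicate 2 was the highest library, with 31.7, 20.9 and 16.9 read pairs. Rspo2 reached at most 0.651 in HdR and 0.418 in WT. Wnt7a, Wnt9b and Dkk1, the classical inhibitor of LRP6, reached at most 0.277 in any library. Wnt8a was listed at 0 in the 3 HdR libraries and at 0.103, 0.0788 and 0.03302 in WT. These levels are too low for a comparison at this depth.

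Further genes of the pathway were taken from 3 lists of secretion and receptor genes, signal transducers and planar polarity genes. Of 85 such genes 82 were tested, 33 were lower in HdR and 2 higher, with a median change of -0.50, and after length correction 19 were lower and 1 higher (median -0.43). The shares of all genes are those given above. Of 26 secretion and receptor genes tested 10 were lower and 1 higher (6 and 0 after length correction). Lgr5, the R-spondin receptor that marks follicle stem cells, had 3.43, 3.31 and 4.01 bases per Mb in HdR, against 11.6, 11.2 and 13.3 in WT. The groups lay far apart (log2 change -1.50, limma adjusted p = 0.00307; -1.24 and adjusted p = 0.00458 after length correction). Its relative Lgr4 had 32.9 ± 6.51 in HdR and 59.6 ± 8.301 in WT (SD, n = 3 each; log2 change -0.85, limma adjusted p = 0.0162; -0.56 with an adjusted p of 0.0368 after length correction). Kremen1, a Dickkopf receptor, had 21.1 ± 3.04 in HdR and 48.2 ± 12.9 in WT (-1.13, limma adjusted p = 0.0133; -0.86 with an adjusted p of 0.0217 after length correction). Apcdd1, a membrane inhibitor linked to hair loss in humans, changed by -0.91 (adjusted p = 0.0144) and by -0.43 after length correction (adjusted p = 0.0823). The single gene that rose was Tspan12, a partner of FZD4 in Norrin signalling, with 16.4 ± 3.401 in HdR and 9.75 ± 0.703 in WT (0.68, limma adjusted p = 0.03), and it did not pass after length correction (0.56, adjusted p = 0.0625).

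Of 40 signal transducers tested 15 were lower and 1 higher (11 and 0 after length correction). Nkd2, a Dishevelled-binding antagonist, had 12.5, 9.29 and 11.9 bases per Mb in HdR, against 27.5, 25.4 and 28.6 in WT, without overlap (log2 change -1.21, limma adjusted p = 0.00571; -1.03 after length correction, adjusted p = 0.00634). The other lower genes named by smallest p were Amer1 (-1.10), Apc (-1.27) and Btrc (-1.03), with limma adjusted p from 0.00807 to 0.0107. They belong to the destruction complex or its ubiquitin ligase and passed after length correction (-0.65, -0.77 and -0.77). They do not stand for the whole complex: of its Axins, Axin2 passed and Axin1 did not, and 24 of the 40 transducers had no call. Beta-catenin itself, Ctnnb1, singled out after its values were seen, had 217, 161 and 252 in HdR, against 469.9, 344 and 542 in WT (log2 change -1.10, limma adjusted p = 0.0148; -0.97 after length correction). The gene that rose was Ctnnbip1, whose product ICAT blocks beta-catenin from TCF, with 145, 161 and 149 in HdR and 89.7, 126 and 102 in WT (0.53, limma adjusted p = 0.0438; 0.46 with an adjusted p of 0.0588 after length correction). Lef1, the TCF family factor of the hair matrix, was low, with 1.12, 2.98 and 1.73 in HdR and 1.42, 1.59 and 1.95 in WT, and did not pass (0.11, 95% interval -0.45 to 0.66). Of 16 planar polarity genes 8 were lower and 0 higher. They included Prickle1 (-0.90), Vangl1 (-1.28), Prickle2 (-0.88) and Daam2 (-0.94), with limma adjusted p from 0.0122 to 0.0275. After length correction 2 were lower, Prickle1 and Vangl1, and 1 was higher, Celsr3 (0.71, named after its values were seen).

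Among 27 genes known as beta-catenin targets, 22 were tested, 8 were lower and 3 higher, with a median of -0.37, against 17.9% lower and 12.7% higher over all genes, so the higher count was near the share of all genes. Of the 8, Axin2 and Wif1 are among the 50 genes, Lgr5, Apcdd1 and Prickle1 are described above, and Rnf43, a ubiquitin ligase that removes Frizzled, and Tnfrsf19, a receptor of the TNF family, changed by -0.66 and -0.68 (both named after their values were seen). Mycn, an oncogenic transcription factor, had 0.366, 0.777 and 0.524 bases per Mb in HdR, against 2.15, 2.55 and 2.33 in WT. It passed the filter through the WT libraries alone, so it had to differ, and its place among the 8 is no support for them. Those that rose were Myc, with 39.7, 36.3 and 48.003 in HdR and 31.9, 15.6 and 23.6 in WT (0.82, limma adjusted p = 0.0377), the differentiation inhibitor Id2 (0.82, adjusted p = 0.027) and the T-box factor Tbx3 (1.10, adjusted p = 0.033). After length correction 4 of the 22 targets were lower, Lgr5, Mycn, Prickle1 and Wif1, against 11.5% of all genes. Mycn is no support for this count either. The 2 higher were Tbx3 and Cd44 (0.56, named after its values were seen), near the 7.92% of all genes. Myc and Id2 changed by 0.67 and 0.54 after length correction without passing (limma adjusted p = 0.098 and 0.0548).

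Markers of the hair matrix and the inner root sheath were lower in HdR skin. Counts of marker genes stand against 17.9% lower and 12.7% higher over all genes tested, and against 11.5% and 7.92% after length correction. Of 12 hair matrix and precortex markers 10 were lower and 0 higher (9 lower and 0 higher after length correction, of 11 with a length), with a summed level of 39.6 to 51.98 bases per Mb in HdR and 119.7 to 156 in WT. Of 9 inner root sheath markers 8 were lower and 0 higher (7 lower and 0 higher after length correction), with sums of 97.9 to 197 in HdR and 639 to 951 in WT. The counts of the other skin lists were nearer to the share of all genes. Of 12 bulge and outer root sheath markers 3 were lower and 0 higher, with a median change of -0.10 (3 lower and 0 higher after length correction, of 11 with a length), and the sums were 1751 to 2618 in HdR and 3303 to 3742 in WT. Of 10 dermal papilla markers tested 3 were lower and 1 higher (3 lower and 0 higher after length correction), with sums of 264 to 318 in HdR and 342 to 372 in WT. Of 8 basal keratinocyte markers 2 were lower and 0 higher (1 lower and 0 higher after length correction), with sums of 4269.7 to 5135 in HdR and 6166 to 7135 in WT. Of 14 dermal fibroblast markers 3 were lower and 1 higher (4 lower and 2 higher after length correction), and the sums of 7161 to 9561 in HdR and 7126 to 10269.97 in WT overlapped. The part of these cells in the lower Wnt gene levels was not tested.

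Markers of further cell types gave mixed counts. Of 10 ear cartilage markers tested, relevant to Frzb, 3 were lower and 0 higher (2 lower and 1 higher after length correction), with sums of 153 to 195 in HdR and 163 to 297 in WT. Of 12 T and NK cell markers tested, relevant to Tcf7, 0 were lower and 1 higher (1 lower and 1 higher after length correction), with sums of 172 to 268 in HdR and 191 to 227 in WT. Of 9 endothelial markers, relevant to Fzd4, 2 were lower and 0 higher (0 lower and 0 higher after length correction), with sums of 201 to 229.5 in HdR and 207 to 238 in WT. Of 9 adipocyte markers 0 were lower and 5 higher (0 lower and 5 higher after length correction), with sums of 1978 to 2836 in HdR and 617 to 683 in WT. Of 9 skeletal muscle markers 0 were lower and 3 higher (0 lower and 2 higher after length correction), with sums of 3547 to 4385 in HdR and 1949 to 2994 in WT. The median change of these 9 was -0.16, against -0.13 over all genes tested, and was -0.34 after length correction. Most of the 9 thus had negative changes, although the sums were higher. Of 11 Schwann cell and melanocyte markers 3 were lower and 0 higher (5 lower and 0 higher after length correction), with sums of 225 to 292 in HdR and 307 to 316 in WT. Their part in the Wnt gene values was not tested.

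Leaving out single libraries moved the calls. Without WT replicate 1, 1 of 41 Wnt genes tested was lower, Fzd2, against 230 of all 14832 genes tested. Without WT replicate 3, 3 of 41 were lower (Fzd2, Sfrp1 and Wnt5a), against 746 of 14816. Leaving out HdR replicate 2 left 6 of 42 lower, against 1139 of 14918. The count was 8 of 42 (1775 of 14903 over all) without HdR replicate 1 and 9 of 42 (2016 of 14883) without HdR replicate 3. Without WT replicate 2, 22 of 41 were lower, against 3359 of 14871. The calls of all genes thus moved as well. In 13 of the 18 lower genes WT replicate 2 was the lowest WT library. Strand is not stated for the counting, and exons of another gene on the opposite strand overlap part of the exons of 9 of the 50 genes, the largest share being 17.8% for Fzd5, with 16.1% for Sfrp2 and 13.1% for Rspo3, so reads there cannot be assigned to 1 gene.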

How the data were processed

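RNA-seq of imiquimod-treated ear skin was measured in 3 HdR and 3 WT samples (TRIzol and RNeasy extraction, NEBNext Ultra II libraries and NovaSeq sequencing, per the labels' protocols). The authors deposited 1 table of coverage signal, whole-number sums of aligned bases per gene symbol. The genome build is GRCm38 per the submitters' processing notes, while the aligner, annotation, counting tool and strand are not stated there. The sums are not counts of reads: 10.2% of low values are multiples of 300, a pair of 150-base reads. A test on the log scale was therefore used. Libraries were scaled by trimmed means of log ratios (TMM, trims of 30% and 5%), and genes reaching 1 base per Mb in 3 or more libraries were fitted by robust limma-trend 3.58.1 (R 4.3.3) on log2(value + 1), two-sided. On simulated coverage with this design 87.8% of 2-fold and 100% of 4-fold changes were recovered among 15064 genes, with 7 false calls. The simulated noise had a fixed size, was independent between genes and held no length trend or other shared difference between libraries. These figures check the fit and give no error rate for the real libraries. The length correction fitted a spline with 4 degrees of freedom to log2 length of the longest GENCODE M21 transcript (GRCm38), known for 99% of genes tested, and subtracted it from each library, keeping the library's mean. Motifs were sought by exact match.

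The members and lists were chosen with earlier results of these data known, so no list was tested as a set and no p was adjusted over a list. Values in every sample are given for each of the 50 genes past the threshold and for Axin2, Lef1 and Rbck1. Up to 4 genes with the smallest p in each direction are named from each pathway list. Same-numbered HdR and WT libraries deviated together (r = 0.163, 0.416 and 0.366 for numbers 1, 2 and 3). The labels give no pairing, and the main fit did not pair the samples. The replicate number entered only as a block in further settings, and the cause of the shared deviation was not tested. Intervals cover the spread between samples only.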

Additional observations from a re-analysis of the deposited data

How the results depend on the processing

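The 42 Wnt genes tested gave 18 lower and 0 higher with TMM. With quantile normalisation 11 were lower and 1 higher, against 13.9% lower and 15.3% higher over all genes. Without a filter all 50 genes were tested and 6 were lower, against 1127 of all 23289 genes tested. The lower count was 7 with the length trend removed and 12 with the replicate block as well. With the length trend and the library mean removed (chosen after seeing the data) it was 5. It was 3 of 42 with the length trend removed and without HdR replicate 2, against 500 of 14773 genes. With 1 library left out it was 1 to 22. The median change of the Wnt genes tested, -0.56, was -0.83 with total scaling, which moved the median of all genes to -0.41. It was -0.36 with the length trend and library mean removed and -0.60 to -0.41 with 1 library left out. With the replicate block 22 of the 42 were lower, and the block changed no call of these genes but those of Axin1, Fzd6, Fzd8 and Wnt9a. With voom 26 were lower, including 17 of the 18 (all but Axin2), against 4647 of all 15049 genes tested. The 12 lower with the length trend removed and the replicate block stand against 2966 of 14901 genes.

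The other pathway genes gave 33 lower and 2 higher. The lower count was 17 of 85 without a filter, 19 with the length trend removed and 13 with the library mean removed as well. It was 7 with the length trend removed without HdR replicate 2 and 3 to 38 with 1 library left out. The higher count was 0 with total scaling, no filter or the length trend removed without HdR replicate 2, 1 with quantile normalisation or the length trend removed, 4 with the length trend removed and the replicate block or the library mean removed, and 0 to 2 with 1 library left out. Target genes gave 8 lower and 3 higher. The lower count was 4 without a filter (of 27 tested), with the length trend removed, or with the library mean removed too. It was 3 with the length trend removed without HdR replicate 2 and 1 to 7 with 1 library left out. The higher count was 1 with total scaling or with the length trend removed without HdR replicate 2, 0 without a filter and 0 to 3 with 1 library left out.

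Over all genes, 1904 were higher and 2701 lower. The counts were 917 and 4305 with total scaling and 1017 and 1127 of 23289 genes tested without a filter. They were 3398 and 4647 with voom and 1180 and 1711 with the length trend removed. The lower count was 4094 with the replicate block and 1263 with the library mean removed, and with 1 library left out 197 to 2657 were higher and 230 to 3359 lower. Without HdR replicate 2 and the length trend the counts were 237 and 500 of 14773 genes tested. The cause of these moves was not tested, except that fewer samples and, without a filter, more genes tested enter by construction.

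Among the genes named, signs turned only in some that did not pass. Sfrp4 was at 0.044 with the length trend removed, with or without the block, 0.15 with the library mean removed too, 0.026 also without HdR replicate 2 and -0.26 to 0.099 with 1 library left out. Rspo3 was at 0.12 with quantile normalisation and 0.051 with the length trend and library mean removed, where Wnt4 was at 0.094 (0.065 with the length trend removed without HdR replicate 2). Sfrp2 was at 0.049 with quantile normalisation, Sfrp5 at -0.42 to 0.021 with 1 library left out and Dkk2 at -0.15 with total scaling. Lef1 was at -0.11 with total scaling, -0.044 with voom, -0.14 to 0.32 with 1 library left out and -0.047 with the length trend removed without HdR replicate 2. Depth limits the genes below 1 base per Mb.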

Other observations

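HdR replicate 2 had the fewest genes without coverage. It had 1469 genes at 0, against 2135 and 2893 in the other HdR libraries and 2975 to 3699 in the WT libraries. Of the 8 Wnt genes below the filter, 4 were highest in HdR replicate 2. The Wnt target Sp8 had 0.307, 3.75 and 0.805 bases per Mb in HdR replicates 1 to 3, against 0.143, 0.252 and 0 in WT replicates 1 to 3, and the T-box gene Tbx3 had 2.08, 7.03 and 3.39 in HdR, against 1.24, 1.05 and 1.41 in WT. Tbx3 passed and Sp8 did not reach the filter.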
